A study of Homo sapiens with 4 samples.

Results

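The mRNA expressions of 9 genes that write, maintain or remove DNA methylation, or that make a substrate for its removal, were followed in OCI-AML3 cells with and without mtNPM1. The 9 genes were DNMT1, UHRF1, DNMT3A, DNMT3B, TET1, TET2, TET3, IDH1 and IDH2, chosen by symbol and found in the table of 58037 genes by their Ensembl identifiers. All 9 passed the filter on low counts and were among the 15718 genes tested. OCI-AML3 is an established human AML cell line that carries heterozygous mutations in NPM1 and DNMT3A and a homozygous NRAS mutation, which both groups share. The cells were transfected with sgRNA Ctrl, the negative control guide, or with sgNPM1A, the guide for CRISPR-Cas9 editing of mutant NPM1, and harvested on day 3 (72 h), with 2 RNA-Seq libraries per group. The sources used here name no selection of clones for these libraries, and the share of edited cells was not analysed here.

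DNA methylation at CpG sites is copied after replication by DNMT1, which UHRF1 brings to the half-methylated daughter DNA, while DNMT3A and DNMT3B place new methyl groups. The TET proteins oxidize 5-methylcytosine and open the way to its removal, and they need 2-oxoglutarate, which IDH1 in the cytosol and IDH2 in the mitochondria make from isocitrate. Mutations of DNMT3A, TET2, IDH1 and IDH2 are frequent in AML, and DNMT3A mutations often accompany mutations of NPM1. DNA methylation itself was not measured in these libraries, and the gene counts sum both alleles of every gene.

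The libraries held 25069484 and 25587774 counts with sgRNA Ctrl and 28276391 and 28209174 counts with sgNPM1A. At this depth 3 counts, the smallest number told from 0, came to 0.108 to 0.118 CPM (counts after scaling by library size and edgeR's TMM factors), which covers counting error only. NPM1, the targeted gene, had 1319 and 1385 CPM with sgRNA Ctrl and 1189 and 1132 CPM with sgNPM1A, which gave a log2 fold-change of -0.22 (SE, the error of the estimate, 0.07, adjusted p = 0.0360 by edgeR's quasi-likelihood test, 0.156 with a replicate block). With limma-trend on quantile-normalized values the log2 fold-change of NPM1 was -0.42 (adjusted p = 0.00108). By edgeR its adjusted p rose to 0.0746 without sgRNA Ctrl 2, 0.203 without sgNPM1A 1 and 0.430 without sgNPM1A 2. The counts hold both NPM1 alleles together, and other genes share 8.86% of the 50-base words of its transcripts. Of 12 myeloid or AML markers, 10 were tested and 8 were called higher with sgNPM1A by the rule given below, beside 10.5% of all tested genes. Among them were LYZ (lysozyme, log2 fold-change 3.63, SE 0.13, adjusted p = 3.94e-08 by edgeR) and CSF3R (the G-CSF receptor, log2 fold-change 1.40, SE 0.07, adjusted p = 1.35e-07). The summed level of the 12 markers was 2867 and 2970 CPM with sgRNA Ctrl and 6353 and 6994 CPM with sgNPM1A. Single markers weigh heavily in this sum. The highest count of 1 marker in a library was 93496, beside summed counts of 177087 and 194198 with sgNPM1A. KIT had 2 counts or fewer and CD34 had 9 counts or fewer in each library. The summed level of 9 markers of other cell types lay between 1.47 and 2.16 CPM, and CD3D, CD3E, MS4A1, HBB and EPCAM had no count in any library. In such bulk samples fewer cells of a type and less RNA per cell cannot be told apart.

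Of the 9 genes, TET2 passed the test with mtNPM1 KO and was 1.38-fold higher. Calls required that the adjusted p (Benjamini-Hochberg over all tested genes) lay under 0.05 and that the log2 fold-change reached 0.32 in size, the fold threshold of the study, and by this rule 1 of the 9 genes was higher and 0 were lower, against 10.5% of all tested genes called higher, 10.3% called lower and 20.8% called in either direction. At an unadjusted p under 0.05, 5 of the 9 genes passed, TET2 and the 4 lower genes DNMT1, UHRF1, DNMT3B and TET3, beside 37.5% of all tested genes. DESeq2 and limma-trend also called 1 gene higher and 0 lower. The sgRNA Ctrl and sgNPM1A libraries did not overlap in 8 of the 9 genes, 3 of them higher and 5 lower with sgNPM1A, beside 63.1% of all tested genes, and IDH2 was the gene that overlapped. The median log2 fold-change was -0.10 over the 9 genes and 0.00018 over all tested genes. With 2 libraries in each group the smallest two-sided p of an exact permutation test is 0.333, and all calls therefore lean on variance that edgeR shares between genes.

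**Figure D1:**
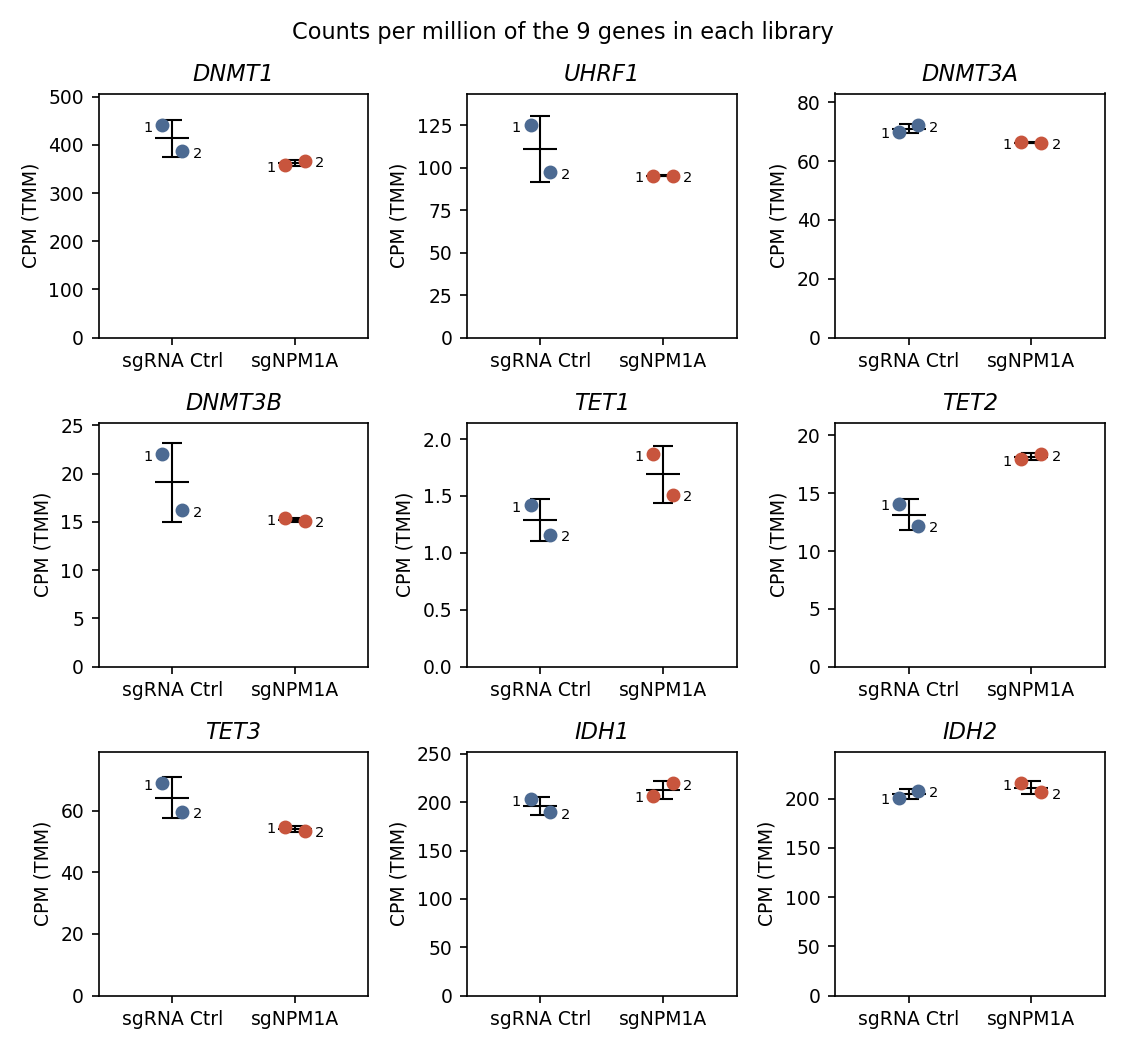
Each panel shows 1 gene, with TMM-scaled CPM on an axis that starts at 0; points are single libraries numbered by replicate, and bars give the mean and SD (n = 2). The 2 TET2 libraries with sgNPM1A sit above both controls, while in UHRF1 and DNMT3B the first control stands above the other 3 libraries.

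Per kilobase of exon the genes differed widely in level. In the sgRNA Ctrl libraries IDH2 had 73.3 ± 1.85 CPM per kb (SD, n = 2), IDH1 41.8 ± 2.02, DNMT1 26.9 ± 2.49 and UHRF1 21.6 ± 3.80. The order went on with DNMT3A at 5.16 ± 0.112 CPM per kb, TET3 at 4.96 ± 0.508, DNMT3B at 2.78 ± 0.598, TET2 at 0.798 ± 0.0808 and TET1 at 0.134 ± 0.0190. In this order DNMT3A and TET3 were the neighbours whose libraries overlapped with sgRNA Ctrl, and with sgNPM1A no neighbours did. The order was the same with sgNPM1A, where TET2 stood at 1.10 ± 0.0184 and TET1 at 0.176 ± 0.0260 CPM per kb. The lengths are those of all exons of a gene together, so a gene with many rarely used exons reads lower on this scale.

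Maintenance methylation was described by DNMT1 and UHRF1. DNMT1, on chromosome 19 of GRCh38.p14 from 10133346 to 10194953 (minus strand), had 440.4 and 386 CPM with sgRNA Ctrl and 357 and 366 CPM with sgNPM1A. Both knockout libraries were below both controls, with a log2 fold-change of -0.19 (SE 0.08, 95% interval -0.36 to -0.03, adjusted p = 0.0833 by edgeR). UHRF1, the reader of half-methylated DNA, lies on chromosome 19 from 4903080 to 4962154 (plus strand) and had 125 and 97.4 CPM with sgRNA Ctrl and 95.1 and 95.4 CPM with sgNPM1A. Its first control library was high and the other 3 libraries lay between 95.1 and 97.4 CPM. The log2 fold-change of UHRF1 was -0.22 (SE 0.10, 95% interval -0.45 to -0.00034, adjusted p = 0.133). Without sgRNA Ctrl 1 the values were -0.10 for DNMT1 (adjusted p = 0.303) and -0.03 for UHRF1 (adjusted p = 0.770); without sgRNA Ctrl 2 they were -0.28 (adjusted p = 0.0117) and -0.39 (adjusted p = 0.00354). Of the 50-base words in UHRF1 transcripts 20.2% also occur elsewhere, mainly in ENSG00000256663, so its counts may be split. That locus had 7.67 and 5.75 CPM with sgRNA Ctrl and 5.35 and 4.86 CPM with sgNPM1A. The ratio of DNMT1 to UHRF1 per kilobase was 1.18 and 1.33 with sgRNA Ctrl and 1.26 and 1.28 with sgNPM1A, so the knockout values lay between the controls.

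UHRF1 belongs to the 43 S phase genes of the R package Seurat, which were higher in 1 gene (CDCA7) and lower in 7 genes with sgNPM1A, with a median log2 fold-change of -0.16. This was 18.6% of the list, beside 20.8% called over all tested genes. Fewer were called without sgRNA Ctrl 1 (median -0.12) and without sgNPM1A 2 (median -0.18), each time a smaller share than of all tested genes. E2F8, a repressor of E2F targets, had 60.0 and 55.9 CPM with sgRNA Ctrl and 31.6 and 32.8 CPM with sgNPM1A, which gave a log2 fold-change of -0.85 (SE 0.08, adjusted p = 1.87e-05). The summed level of the S phase genes was 5224 and 5002 CPM with sgRNA Ctrl and 4559 and 4640 CPM with sgNPM1A. The part of cycling cells in the values of DNMT1 and UHRF1 was not tested. The promoters of this pair are shown because both work at replication and both had knockout values below the controls, in RefSeq windows of 300 bases, 250 before the annotated start and 50 from it, on GRCh38.p14. Capitals mark an E2F word, TTTCGCGC, TTTCCCGC or TTTGGCGC on either strand, found in DNMT1 at position -2 and in UHRF1 at position -14 from the start (first base of the word on the printed strand).
DNMT1, chr19:10194904-10195203, minus strand: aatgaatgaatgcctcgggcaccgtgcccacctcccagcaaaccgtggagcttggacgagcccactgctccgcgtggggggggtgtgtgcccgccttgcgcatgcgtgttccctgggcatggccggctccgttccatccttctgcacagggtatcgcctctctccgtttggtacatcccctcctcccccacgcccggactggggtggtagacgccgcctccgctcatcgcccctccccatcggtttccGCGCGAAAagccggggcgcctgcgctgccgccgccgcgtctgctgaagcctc
UHRF1, chr19:4909251-4909550, plus strand: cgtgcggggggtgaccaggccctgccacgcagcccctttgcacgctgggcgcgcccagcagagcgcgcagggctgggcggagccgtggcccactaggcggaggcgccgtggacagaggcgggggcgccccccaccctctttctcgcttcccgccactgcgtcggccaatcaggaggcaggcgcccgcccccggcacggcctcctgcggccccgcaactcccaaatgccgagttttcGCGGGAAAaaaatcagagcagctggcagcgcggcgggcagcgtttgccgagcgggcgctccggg
An E2F word was found in 2.74% of the 35116 RefSeq windows of this length. Among the 21 windows of the 9 genes it was found in the single DNMT1 window and in 2 of 3 UHRF1 windows. A match describes the letters and not the binding of a factor.

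De novo methylation was described by DNMT3A and DNMT3B. DNMT3A, on chromosome 2 from 25227874 to 25342590 (minus strand), had 70.0 and 72.2 CPM with sgRNA Ctrl and 66.3 and 66.2 CPM with sgNPM1A. The libraries were close within each group, and the log2 fold-change of -0.10 (SE 0.07, 95% interval -0.26 to 0.06) did not pass (adjusted p = 0.335). The interval reaches from a fold of 0.837 to 1.04, and the counts sum the mutant and wild-type DNMT3A alleles of this line. DNMT3B, on chromosome 20 from 32762385 to 32809356 (plus strand), had 22.0 and 16.2 CPM with sgRNA Ctrl and 15.4 and 15.1 CPM with sgNPM1A. As in UHRF1, sgRNA Ctrl 1 stood apart from the other 3 libraries. The log2 fold-change of DNMT3B was -0.33 (SE 0.14, 95% interval -0.62 to -0.03, adjusted p = 0.104), -0.09 without sgRNA Ctrl 1 (adjusted p = 0.621) and -0.53 without sgRNA Ctrl 2 (adjusted p = 0.00815). The ratio of DNMT3A to DNMT3B per kilobase was 1.59 and 2.23 with sgRNA Ctrl and 2.16 and 2.19 with sgNPM1A, and the groups overlapped. DNMT3L, a cofactor of both enzymes without activity of its own, had between 1 and 6 counts per library and was not tested.

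Of the TET genes, TET2 passed the test and TET1 and TET3 did not. TET2, on chromosome 4 from 105145875 to 105279803 (plus strand), had 358 and 316 counts with sgRNA Ctrl and 500 and 510 counts with sgNPM1A, or 14.1 and 12.2 against 17.9 and 18.4 CPM. Both knockout libraries were above both controls and close to each other. The mean rose from 13.1 ± 1.33 CPM to 18.2 ± 0.304 CPM (SD, n = 2). The log2 fold-change was 0.47 (SE 0.11, adjusted p = 0.00923 by edgeR), or 1.38-fold with a 95% interval from 1.17 to 1.63. In 12 other settings the log2 fold-change of TET2 lay between 0.37 and 0.57, with the smallest value without sgRNA Ctrl 2. In the planned settings with all libraries the adjusted p lay between 0.00075 (edgeR without a filter) and 0.0158 (DESeq2). It came closer to the threshold without sgRNA Ctrl 2 (log2 fold-change 0.37) and without sgNPM1A 2 (0.45). A crossed block, which pairs differently numbered libraries, gave 2.60e-06 by edgeR. That block was added after the data were seen and adds no support. By adjusted p, 14.3% of all tested genes ranked ahead of TET2. TET2-AS1, which overlaps TET2, had 4 counts or fewer in each library, and 0.042% of the 50-base words of TET2 occur in another gene.

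TET3, on chromosome 2 from 73983631 to 74135498 (plus strand), had 68.8 and 59.5 CPM with sgRNA Ctrl and 54.6 and 53.4 CPM with sgNPM1A. All knockout values were below the controls, of which sgRNA Ctrl 1 was the higher, and the log2 fold-change was -0.25 (SE 0.09, 95% interval -0.44 to -0.06, adjusted p = 0.0526). Without sgRNA Ctrl 1 it was -0.14 (adjusted p = 0.211) and without sgRNA Ctrl 2 it was -0.35 (adjusted p = 0.00979). BOLA3, which overlaps TET3 in the annotation, had 30.6 and 28.2 CPM with sgRNA Ctrl and 43.8 and 44.2 CPM with sgNPM1A, the opposite direction. TET1, on chromosome 10 from 68560337 to 68694487 (plus strand), was the least abundant of the 9 genes, with 36 and 30 counts in the controls and 52 and 42 counts with sgNPM1A. Its log2 fold-change of 0.39 (SE 0.25, adjusted p = 0.295) has an interval from -0.17 to 0.95, so a change of the size found in TET2 was not detectable at this depth. The value was 0.24 without sgNPM1A 1, 0.25 without sgRNA Ctrl 2 and 0.54 without sgRNA Ctrl 1 or without sgNPM1A 2.

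Within each library TET3 was the main TET transcript, and the share of TET2 was larger with sgNPM1A. TET2 made up 13.5% and 13.6% of the TET sum (CPM per kb) with sgRNA Ctrl and 19.8% and 20.6% with sgNPM1A, and TET3 84.1% and 84.2% against 76.7% and 76.4%. The ratio of TET3 to TET2 was 6.22 and 6.21 in the controls and 3.88 and 3.70 with sgNPM1A. The groups did not overlap, and the exact permutation test can give no p below 0.333 here. The TET sum itself overlapped, with 6.32 and 5.46 CPM per kb with sgRNA Ctrl and 5.50 and 5.40 with sgNPM1A. In the DNMT family the shares overlapped between groups, DNMT1 taking between 76.7% and 77.6% in every library, while the DNMT sum was 36.9 and 32.7 CPM per kb with sgRNA Ctrl and 30.3 and 30.8 with sgNPM1A.

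**Figure D2:**
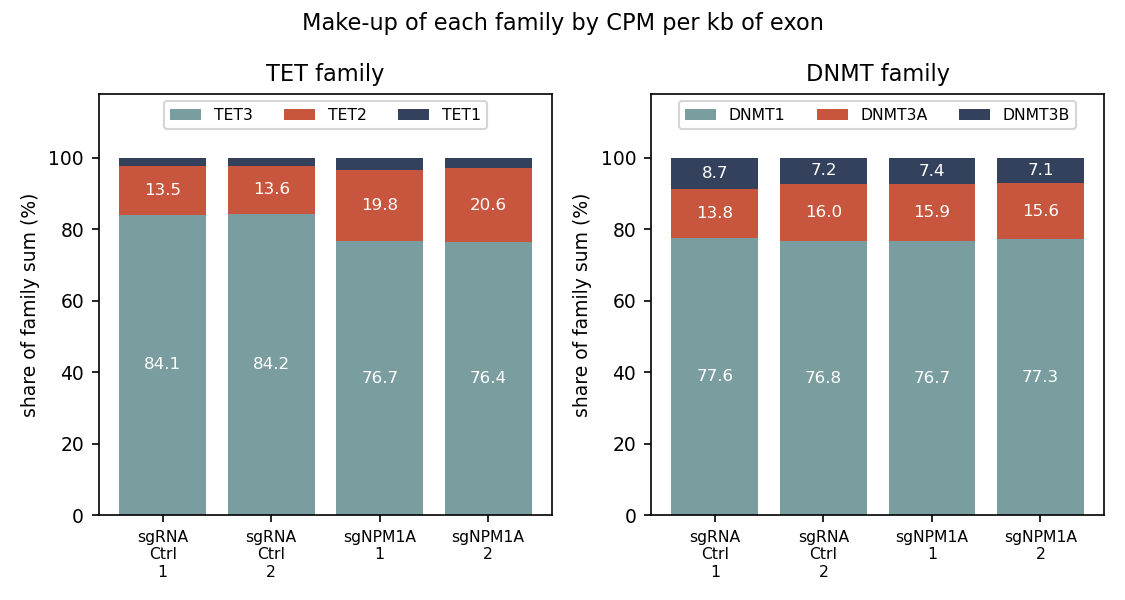
Stacked bars give the share of each gene in the summed CPM per kb of its family, in percent, for each of the 4 libraries, TET family left and DNMT family right. TET2 takes 13.5% and 13.6% in the controls and 19.8% and 20.6% with sgNPM1A, and the DNMT1 share stays between 76.7% and 77.6%.

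The promoters of TET2 and TET3 are shown as those of the pair with values in opposite directions. Capitals mark the E-box CACGTG, the same on both strands, which stands at position -14 from the start in the first TET2 window and at 2 places in the first TET3 window.
TET2, chr4:105145625-105145924, plus strand: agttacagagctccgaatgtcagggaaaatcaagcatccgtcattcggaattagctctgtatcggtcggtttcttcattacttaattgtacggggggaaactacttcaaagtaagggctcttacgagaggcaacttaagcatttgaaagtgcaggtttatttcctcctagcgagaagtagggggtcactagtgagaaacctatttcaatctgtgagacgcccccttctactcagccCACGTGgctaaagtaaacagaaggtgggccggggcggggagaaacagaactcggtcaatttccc
TET3, chr2:73984660-73984959, plus strand: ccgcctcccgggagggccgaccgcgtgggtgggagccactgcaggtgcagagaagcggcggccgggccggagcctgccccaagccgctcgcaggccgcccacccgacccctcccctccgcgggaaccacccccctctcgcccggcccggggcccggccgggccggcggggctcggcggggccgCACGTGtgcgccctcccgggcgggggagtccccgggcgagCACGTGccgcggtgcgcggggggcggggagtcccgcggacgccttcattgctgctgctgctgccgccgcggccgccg
The E-box was found in 7.26% of the 35116 windows, and 2 of 6 DNMT3A windows hold it as well. These 2 DNMT3A windows overlap and share the same site. The TET2 window has 13 CpG sites and the TET3 window 45, beside a median of 14 over all windows; the second TET2 window has 35. The cAMP response word TGACGTCA, in 1.85% of all windows, was in none of the 21 windows.

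IDH1 and IDH2 were the most abundant of the 9 genes per kilobase and neither passed the test. IDH1, on chromosome 2 from 208236227 to 208255071 (minus strand), had 203 and 189.5 CPM with sgRNA Ctrl and 206 and 219.5 CPM with sgNPM1A. The higher control and the lower knockout library were close, and the log2 fold-change was 0.12 (SE 0.07, adjusted p = 0.238), with a fold interval from 0.978 to 1.20. IDH2, on chromosome 15 from 90083045 to 90102468 (minus strand), had 201 and 208 CPM with sgRNA Ctrl and 215 and 206 CPM with sgNPM1A, so the groups overlapped. Its log2 fold-change was 0.05 (SE 0.06, adjusted p = 0.656), and the fold interval from 0.935 to 1.14 does not reach the fold threshold in either direction. The ratio of IDH2 to IDH1 per kilobase was 1.67 and 1.85 with sgRNA Ctrl and 1.76 and 1.58 with sgNPM1A and overlapped.

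**Figure D3:**
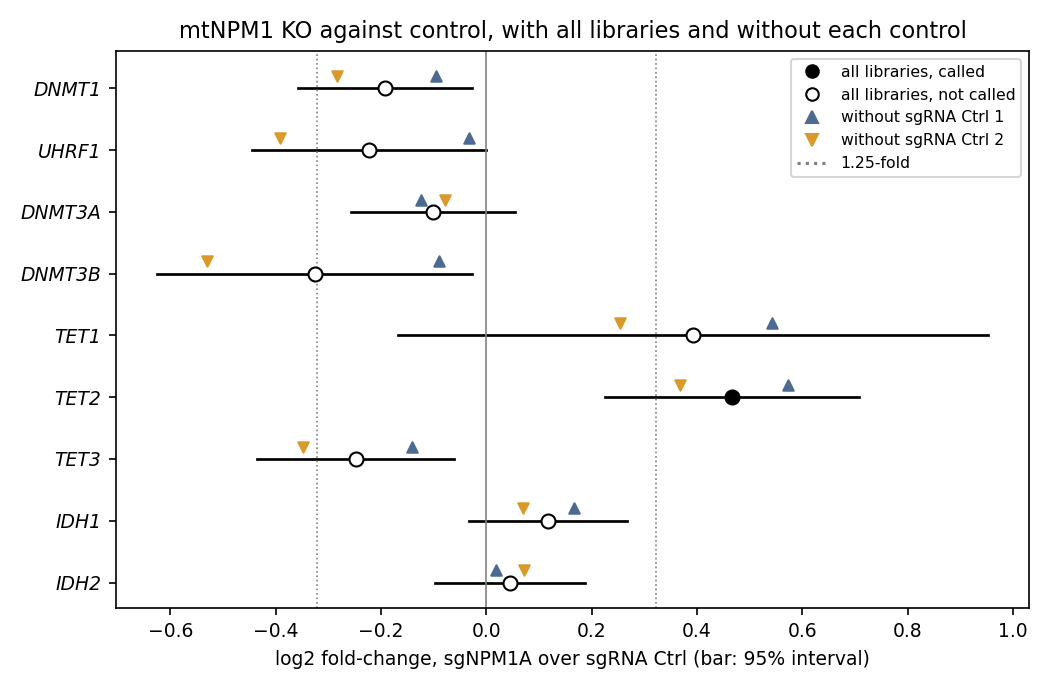
Log2 fold-change of each gene, sgNPM1A over sgRNA Ctrl, with its 95% interval; the filled circle is the called gene, triangles give the value with sgRNA Ctrl 1 or 2 left out, and dotted lines stand at a log2 fold-change of 0.32 in either direction. TET2 stays right of the dotted line with either control left out, and UHRF1 moves from -0.39 to -0.03.

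The genes that work with the DNMT proteins or read their mark were followed in 2 lists. Of 12 partners of the DNMT enzymes 11 were tested and 1 was called (9.09%, beside 20.8% of all tested genes), with a median log2 fold-change of -0.10. CDCA7, which works with the remodeller HELLS in the methylation of heterochromatin, had 91.7 and 88.9 CPM with sgRNA Ctrl and 113 and 122 CPM with sgNPM1A, which gave a log2 fold-change of 0.38 (SE 0.07, adjusted p = 0.00242, 0.0646 without sgNPM1A 2). It is on the S phase list too, where it was the gene called against the direction of the rest. Of 9 readers of methylated CpG sites all were tested and 2 were called, both lower (22.2%, beside 20.8% of all tested genes), with a median of -0.12. UHRF2, the paralog of UHRF1, had 107 and 112 CPM with sgRNA Ctrl and 88.1 and 86.3 CPM with sgNPM1A, and its log2 fold-change was -0.32 (SE 0.07, adjusted p = 0.00492). UHRF2 fell short of the fold threshold without sgRNA Ctrl 2 (log2 fold-change -0.29), and its adjusted p was 0.0577 without sgNPM1A 1 and 0.0980 without sgNPM1A 2. ZBTB38, a zinc finger reader of methylated DNA, had 3.42 and 2.39 CPM with sgRNA Ctrl and 1.58 and 1.84 CPM with sgNPM1A (log2 fold-change -0.77, SE 0.24, adjusted p = 0.0350, 0.210 without sgRNA Ctrl 1 and 0.140 without sgNPM1A 1; DESeq2 gave 0.130).

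Of 7 regulators of the TET proteins 5 were tested and 2 were called, both higher (beside 20.8% of all tested genes), with a median log2 fold-change of 0.23. CXXC5, a CpG-binding protein related to the TET2 partner CXXC4, had 22.0 and 22.5 CPM with sgRNA Ctrl and 57.5 and 56.3 CPM with sgNPM1A. This log2 fold-change of 1.36 (SE 0.08, adjusted p = 5.48e-07) kept its call with each library left out, and CXXC4 itself had no count in any library. QSER1, which acts with TET1 against de novo methylation, had 13.8 and 11.5 CPM with sgRNA Ctrl and 15.5 and 17.1 CPM with sgNPM1A (log2 fold-change 0.36, SE 0.12, adjusted p = 0.0465). The call of QSER1 was lost with the replicate block (adjusted p = 0.0594), with DESeq2 (0.105), without sgRNA Ctrl 2 (0.194) and without sgNPM1A 2 (0.260).

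A list of 15 genes held base excision repair, which replaces oxidized methylcytosine, and the GADD45 genes, which are not repair enzymes. Of these, 14 were tested and 3 were higher, NEIL3, APEX1 and GADD45A. UNG was the 1 lower gene (28.6% called, beside 20.8% of all tested genes), and the median was 0.01. TDG, the glycosylase that removes the products of TET oxidation, did not pass (log2 fold-change -0.04, adjusted p = 0.738). NEIL3, a glycosylase of oxidized bases, rose from 19.4 and 17.1 CPM to 30.8 and 33.0 CPM (log2 fold-change 0.81, SE 0.10, adjusted p = 0.000116). APEX1, the main endonuclease at abasic sites, rose from 339 and 316 CPM to 413 and 419.8 CPM (log2 fold-change 0.35, SE 0.07, adjusted p = 0.00288), and without sgRNA Ctrl 2 fell short of the fold threshold at 0.30. UNG, which removes uracil from DNA and is also on the S phase list, fell from 107 and 98.3 CPM to 74.6 and 80.2 CPM (log2 fold-change -0.41, SE 0.08, adjusted p = 0.00230).

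Genes that make or use 2-oxoglutarate in central metabolism were mostly higher with sgNPM1A where they passed the test. Of 34 listed genes 31 were tested, 11 were higher and 1 was lower, which is 38.7% called beside 20.8% of all genes, and the median log2 fold-change was 0.17. Without sgRNA Ctrl 2 fewer of them were called and their share came closer to that of all genes, while their median was 0.15. MDH1, the cytosolic malate dehydrogenase, rose from 112 and 130.5 CPM to 186 and 189.8 CPM (log2 fold-change 0.63, SE 0.08, adjusted p = 0.000144). SDHD, a subunit of succinate dehydrogenase, rose from 50.1 and 55.3 CPM to 79.3 and 83.5 CPM (log2 fold-change 0.63, SE 0.08, adjusted p = 0.000146). Others called higher included IDH3A, IDH3B, CS, OGDH, OGDHL, DLD, SUCLG1 and SDHB, with log2 fold-changes between 0.34 and 0.70. With SDHD they all act in or beside the citric acid cycle. Without sgRNA Ctrl 2, IDH3A (0.28), CS (0.317), OGDH (0.28) and DLD (0.22) fell short of the fold threshold. Without sgNPM1A 2, IDH3A and DLD did so too (both 0.31). OGDHL had 54 to 110 counts per library and did not pass by DESeq2 (adjusted p = 0.0932). IDH3A and IDH3B are subunits of the NAD-dependent isocitrate dehydrogenase of mitochondria, which makes 2-oxoglutarate as IDH2 does. PHGDH, the first enzyme of serine synthesis, had 56.0 and 79.5 CPM with sgRNA Ctrl and 50.3 and 48.9 CPM with sgNPM1A (log2 fold-change -0.45, SE 0.13, adjusted p = 0.0256), and its difference was -0.17 without sgRNA Ctrl 2 (adjusted p = 0.127). GOT1, of the same list, is listed at 2 counts or fewer in each library and was not tested.

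**Figure D4:**
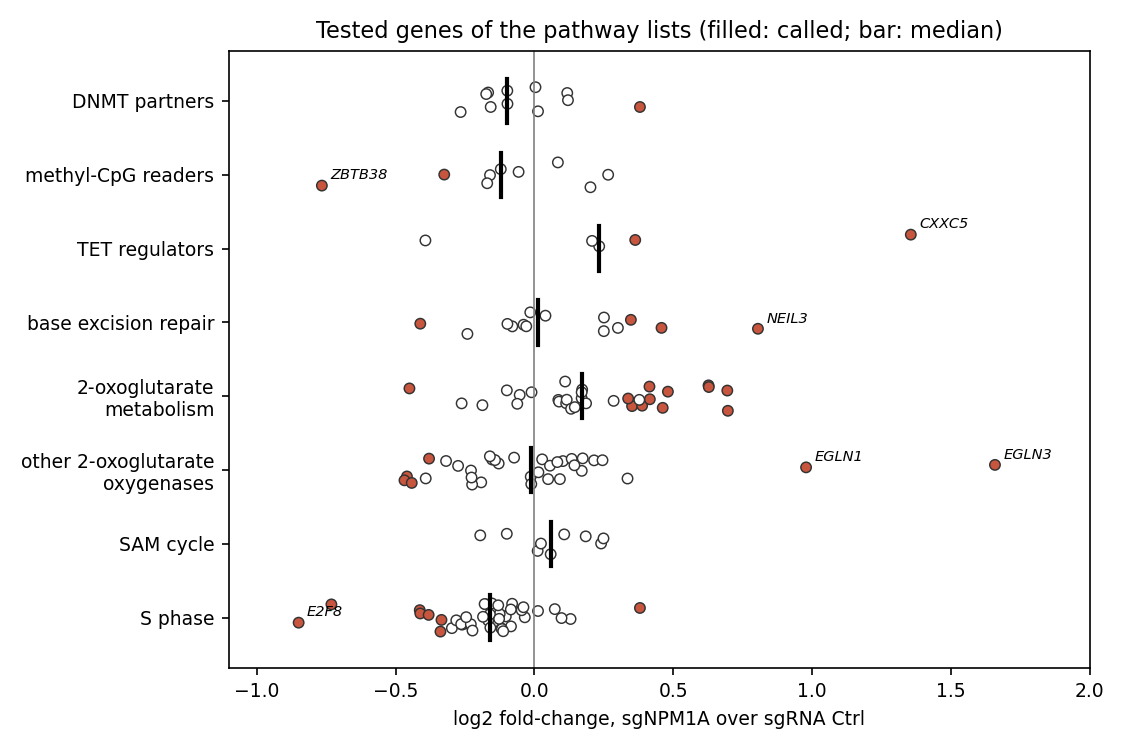
Log2 fold-change, sgNPM1A over sgRNA Ctrl, of the tested genes in 8 lists, with filled points for called genes, a bar at the median of each list and random vertical jitter. Of the genes of 2-oxoglutarate metabolism 11 lie filled to the right and 1 to the left; CXXC5, EGLN1 and EGLN3 stand far right.

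Other enzymes that share the TET cofactor 2-oxoglutarate moved either way. All 34 listed were tested, 2 were higher and 4 were lower (17.6%, beside 20.8% of all tested genes), with a median of -0.01. EGLN1, the prolyl hydroxylase that marks HIF1A for decay, rose from 31.0 and 22.5 CPM to 48.4 and 57.0 CPM (log2 fold-change 0.98, SE 0.13, adjusted p = 0.000285). EGLN3, its relative, had 0.629 and 0.425 CPM with sgRNA Ctrl and 1.47 and 1.87 CPM with sgNPM1A (log2 fold-change 1.66, SE 0.32, adjusted p = 0.00305). KDM6B, a demethylase of histone H3 lysine 27, fell from 60.2 and 61.2 CPM to 42.6 and 45.7 CPM (log2 fold-change -0.46, SE 0.08, adjusted p = 0.00120). RIOX1, an oxygenase of ribosomal protein and histone, fell from 39.7 and 37.5 CPM to 26.3 and 29.5 CPM (log2 fold-change -0.47, SE 0.09, adjusted p = 0.00285). Of the 12 genes of the cycle of S-adenosylmethionine, the methyl donor of the DNMT enzymes, 9 were tested. Of these, 0 were called by edgeR, DESeq2 or limma-trend, and 1 had an unadjusted p under 0.05 by edgeR. AHCYL1, a relative of the enzyme that clears S-adenosylhomocysteine, passed the adjusted p at a smaller fold (log2 fold-change 0.24, adjusted p = 0.0223).

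Germline genes that DNA methylation is known to silence in somatic cells stayed at or near 0. Of 22 such genes 12 had no count in any library, 16 had 3 counts or fewer in each, and the highest count of any was 40. Their summed counts were 53 and 67 with sgRNA Ctrl and 88 and 66 with sgNPM1A, or 2.09 and 2.59 against 3.16 and 2.38 CPM, and these sums overlapped. SOHLH2 alone held 30, 37, 40 and 31 of these counts in the same order. Leaving it out was a choice made after its counts were seen. The other 21 genes together had 23 and 30 counts with sgRNA Ctrl and 48 and 35 with sgNPM1A (0.905 and 1.16 against 1.72 and 1.26 CPM). These sums did not overlap, but neither did the libraries of 63.1% of all tested genes. With so few counts and a choice made afterwards, no direction is read from them. SOHLH2 was the gene tested (log2 fold-change -0.03, adjusted p = 0.947).

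The genes most like TET2 over the 4 libraries were PIR, GADD45A and RUSC1-AS1, out of 8836 genes that averaged 10 CPM or more, by the root mean square distance of centred log2 CPM (0.0028, 0.013 and 0.014). GADD45A, a stress-induced gene on the repair list, was called (log2 fold-change 0.46, adjusted p = 0.0185), and its adjusted p was 0.0793 without sgRNA Ctrl 2, 0.0600 without sgNPM1A 1 and 0.0696 without sgNPM1A 2. Those most like UHRF1 were AKAP11, TNFRSF21 and PDZD8 (0.011, 0.013 and 0.017), all with sgRNA Ctrl 1 above the other 3 libraries and none past the test. These genes were picked for values like those of TET2 or UHRF1, so similar fold-changes follow from the choice and add no support. With 4 libraries many genes come close to any pattern.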

How the data were processed

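RNA-Seq counts of OCI-AML3 cells were analysed, 2 libraries per group, 4 in all. The authors mapped reads to hg38 with STAR and Samtools and deposited raw counts per Ensembl gene; the counting program, strandedness and annotation release are not given in the sources used here. Without strand, overlapping antisense reads cannot be told apart. The labels give alpha-MEM as medium and the paper RPMI. No spike-in rows were used. The members and lists were chosen with earlier results of these data known, and the crossed block after the correlation of same-numbered libraries was seen.

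Counts were tested with edgeR 4.0.16 in R 4.3.3 (filterByExpr with a minimum count of 10, TMM, robust quasi-likelihood F test, two-sided, Benjamini-Hochberg over all 15718 tested genes). Calls needed an adjusted p under 0.05 and a fold of at least 1.25. Libraries are called biological replicates in the study; p-values measure the spread between these libraries. Replicates differed beyond counting noise (chi-square per gene 8.99 with sgRNA Ctrl and 4.16 with sgNPM1A). The common biological coefficient of variation was 0.0619. Lists are described by counts and medians with no set test; S phase genes come from Seurat 5.3.0. Besides the 9 genes and NPM1, up to 2 genes called higher and 2 called lower with the smallest adjusted p at a mean of at least 1 CPM were named per list, and the 3 genes nearest in pattern to TET2 and UHRF1; marker and borderline genes and those completing a count were named after their values were seen. Of the 58037 identifiers 55646 matched a symbol; PECAM1 did not. Not every gene of the lists is reported here by name. Positions and promoters are from RefSeq on GRCh38.p14; all 9 genes matched. Exon lengths and 50-base words are from GENCODE transcripts. The centred log2 CPM used a prior count of 2.

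On simulated counts for sgNPM1A against sgRNA Ctrl over 15444 genes, edgeR called 100 of 100 genes changed by 1 on the log2 scale. It called 92 of 100 changed by 0.5, with 3 false calls. The simulation gave every gene the common coefficient of variation and changed only better counted genes, among which TET1 could not be. Its rates may therefore be better than those in the real libraries. Alternatives were DESeq2 1.42.0, limma-trend (limma 3.58.1) on quantile-normalized values, RLE factors, library size only, other filters and fold thresholds, a replicate block, a crossed block and each library left out; the lone library of a group is then assumed to vary like the other group.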

Additional observations from a re-analysis of the deposited data

How the results depend on the processing

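Of 410 recomputed values 341 kept their side of the threshold, kept their count within 1.5 times or stayed within the spread. None of the log2 fold-changes of the 9 genes and NPM1 changed sign, but 11 recomputed list medians did, all of lists with medians near 0: germline, repair, other oxygenases and the S-adenosylmethionine cycle. TET2 kept its call in each setting except at a fold of at least 2, which left 0 of the 9 genes higher; that threshold also left 498 genes higher and 502 lower over all genes, 1 TET regulator, 1 other oxygenase, and 0 readers, DNMT partners, repair, metabolism or S phase genes. DNMT1 passed the adjusted p with library size only (log2 fold-change -0.23) and TET3 with limma-trend (-0.25) and library size only (-0.29). Without a filter on low counts DNMT1 (-0.20), UHRF1 (-0.23), DNMT3B (-0.33) and TET3 (-0.25) passed, and 1 member was called lower (DNMT3B). The cause was not tested.

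Same-numbered libraries deviated in opposite directions (correlation -0.130 over 15718 genes, -0.523 over the 8856 above 10 CPM), and nothing in the sources pairs them. With the replicate block NPM1 (-0.22, adjusted p = 0.156) no longer passed, 1637 genes were higher and 1604 lower, and 1 TET regulator was called. The crossed block, added after seeing the data, gave 1955 and 1918 calls, and with it DNMT1 (-0.19), UHRF1 (-0.21), DNMT3B (-0.32), TET3 (-0.25) and IDH1 (0.12) passed the adjusted p.

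DESeq2 called 1 reader and 1 TET regulator, and 1 reader was called with at least 10 counts in every sample. With no fold threshold 2 DNMT partners, 1 gene of the S-adenosylmethionine cycle and 16 S phase genes were called. With library size only, which moves the median of all genes to -0.04, list medians were -0.16 for readers, -0.14 for DNMT partners and -0.20 for S phase genes, and -0.028 for repair; without the filter they were -0.020 for repair, -0.052 for DNMT partners and 0.48 for germline genes, mostly with few counts.

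With each library left out in turn, members called lower ranged from 0 to 3 (3 without sgRNA Ctrl 2: UHRF1, DNMT3B and TET3), and the log2 fold-change from -0.28 to -0.10 in DNMT1, -0.39 to -0.032 in UHRF1, -0.53 to -0.089 in DNMT3B, -0.35 to -0.14 in TET3 and -0.26 to -0.18 in NPM1. Calls ranged from 0 to 1 for readers, 0 to 1 for DNMT partners, 1 to 2 for TET regulators, 7 to 12 for 2-oxoglutarate metabolism and 4 to 9 for S phase genes. Medians ranged from -0.10 to -0.078 for readers, -0.077 to -0.042 for DNMT partners, -0.023 to 0.14 for repair, -0.13 to 0.037 for other oxygenases, -0.029 to 0.11 for the S-adenosylmethionine cycle, 0.094 to 0.42 for germline genes and -0.19 to -0.12 for S phase genes. Depth limits TET1 most, at 30 to 52 counts.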
